A study of Homo sapiens with 15 samples.

Results

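The genes at the end of the long arm of chromosome 8 (8q) were followed by RNA-seq through 5 conditions of MRC-5 cells, a widely used fibroblast line of human fetal lung origin. All protein-coding genes that end above position 143138636 of chromosome 8 (GRCh38, total length 145138636) were taken, without RPL8 and CYC1. This gave 72 of the 19616 protein-coding genes and of the 57272 genes counted in all. Of the 72 members, 56 had enough counts to be tested and 16 did not. The end was selected on the log2 fold changes and calls of its genes between senescent and young cells carrying the empty vector, so that comparison is only described below, without a test.

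The young cells were collected at population doubling (PD) 30 after infection with an empty virus (pWPIR-GFP, called EV) or with a virus for the shelterin protein TRF2 (pWPIR-GFP-TRF2). Both received a control siRNA. A further group of young cells with the empty vector received an siRNA against LMNB1 (siLMNB1). The senescent cells were infected with either virus at a stage that the labels call pre-senescent, grew to a plateau and were then given the control siRNA. Per the study's methods, many doublings lay between infection and arrest, and the TRF2 cells were collected at a later population doubling than the EV cells, so that TRF2 and this difference cannot be told apart in senescent cells. All cells therefore carried a GFP vector, came from the same line and were kept at 5% O2. Each condition had 3 libraries. The study calls its replicates biological, but neither the labels nor the methods say that they were separate cultures, and the p-values measure only the spread between these samples, which may be technical. Per the labels, all 6 senescent libraries came from data deposited before, so that deposit and senescent state cannot be told apart.

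Subtelomeres are the regions next to the repeats that cap each chromosome. Silencing of genes near a telomere is known as telomere position effect, and telomeres shorten as normal human cells divide. TRF2 binds the double-stranded repeats and Lamin B1 is a component of the nuclear lamina, which binds chromatin at the nuclear edge. The last part of 8q is crowded with genes of unrelated function. A cluster of zinc finger genes lies nearest to the telomere, and enzymes, transporters, RNA processing factors, plectin and the heat shock regulator HSF1 follow.

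Library totals ranged from 26725885 to 43116046 counts, which limits the precision of genes with few reads, and the values below are TMM-normalised counts scaled to 1000000 per library (CPM). LMNB1 was at 58.6 to 61.0 CPM in young EV cells, at 2.36 to 2.91 CPM with siLMNB1 and at 2.68 to 5.65 CPM in senescent cells. TERF2, the gene of TRF2, was at 21.9 to 26.0 CPM without the TRF2 vector and at 128.1 to 306.7 CPM with it. The 9 fibroblast markers summed to between 20050 and 33420 CPM. By an adjusted p below 0.05 alone, without a fold change threshold, 2 of them rose and 4 fell in each senescent comparison and 5 rose and 2 fell with siLMNB1, and the other marker lists are called in the same way. The leukocyte marker PTPRC was at most 0.0878 CPM and the T cell marker CD3E at 0 in all 15 libraries. The 3 leukocyte markers summed to at most 0.279 CPM in young libraries and to between 1.44 and 3.50 CPM in senescent ones, nearly all of it CD14, which rose. The 3 epithelial markers summed to at most 8.81 CPM and the 3 endothelial ones to at most 3.40 CPM in any library. Of these, EPCAM (1.53) and KRT19 (0.88) rose in log2 fold change with siLMNB1, KRT19 rose between senescent and young EV cells (1.24), and VWF rose in both senescent comparisons (1.84 with the empty vector, 0.96 with TRF2). All 4 markers of dividing cells fell in the senescent comparisons and with siLMNB1, from 307.0 to 402.8 CPM in the young EV and TRF2 libraries to 177.2 to 186.8 CPM with siLMNB1 and 23.2 to 56.8 CPM in senescent cells. Their part in the results below was not tested. In bulk RNA, fewer cells of a kind and less RNA per cell cannot be told apart.

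Senescent EV replicate 3 stood apart from the other senescent libraries. The slope of its gene levels on the GC content of exons was 0.824 log2 units per 10 percentage points, against 0.461 to 0.508 in the other 5 senescent libraries and between -0.006 and 0.135 in the 9 young ones. The median level of the tested members, as a log2 difference from young EV, was 1.16 in that library and 0.69 to 0.82 in the others. The labels trace it to a record outside the consecutive run of the other senescent libraries. Among the young libraries, TRF2 replicate 2 differed most from its group, with a chi-square per degree of freedom of 26.4 and 19.8 against the other 2 replicates, which gave 5.66 between themselves. It also had the highest TERF2 level, 306.7 CPM.

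The levels of the members in young EV cells spanned a wide range when counted per kilobase of exon. GRINA, a membrane protein of the endoplasmic reticulum linked with protection from cell death, stood at 77.7 CPM per kb. PLEC, which encodes plectin, a linker of the cytoskeleton, followed at 38.6 CPM per kb, and GPAA1, a subunit of the enzyme that attaches GPI anchors, at 28.7 CPM per kb. At the low end were GPT (alanine aminotransferase) at 0.0574 CPM per kb, FAM83H (a keratin-associated protein) at 0.147 CPM per kb and MROH6 at 0.242 CPM per kb. GRINA and MROH6 were chosen for this range after their values were seen. The sum of all members was 1906 to 2240 CPM in the 9 young libraries and 3120 to 3798 CPM in the 6 senescent ones.

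Among the 16 members that were too low to test, 5 had no count in any library: LRRC24, SPATC1, CCDC166, ENSG00000264668 and GPIHBP1, the last of which anchors lipoprotein lipase to capillaries. The other 11 reached at most 13 counts in a library. RHPN1 had the highest count, 13, followed by MAPK15 with 10, WDR97 with 9 and IQANK1 with 8. FOXH1, EPPK1 and MAFA reached 6, SCRT1 4, LY6H 3, TMEM249 2 and ENSG00000271698 1. Several of these are tissue-restricted regulators, such as MAFA of pancreatic beta cells. A count of 0 allows up to 3 counts in a library, and at this depth the data do not show whether these genes are transcribed. Exons of other genes cover 100.0% of the exonic bases of LRRC24 and ENSG00000264668 and 94.9% of those of ENSG00000271698, so that reads from these 3 could be left uncounted as ambiguous at any depth.

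**Figure D1:**
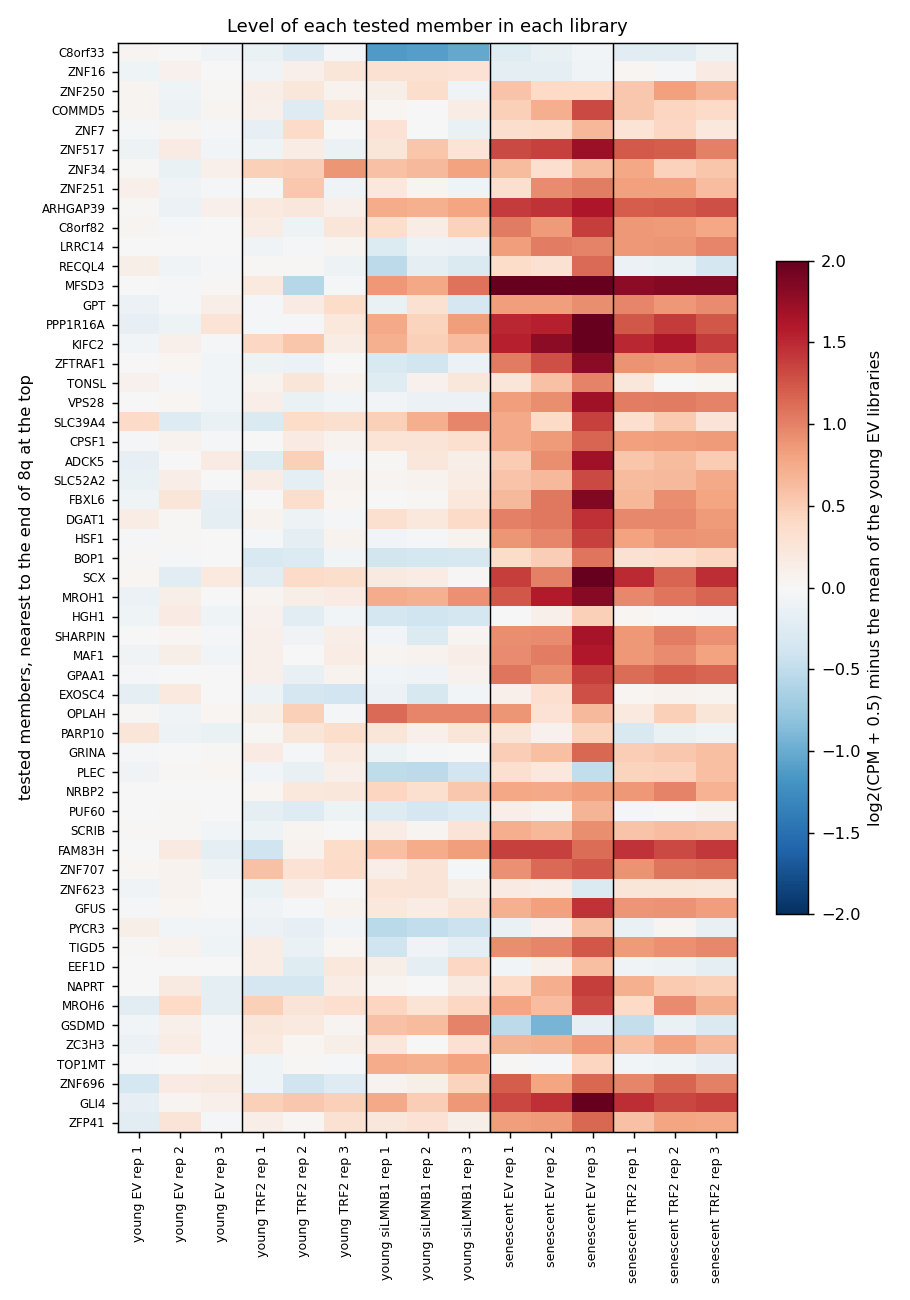
Level of the 56 tested members in the 15 libraries, as log2(CPM + 0.5) minus the mean of the young EV libraries, with the gene nearest to the end of 8q at the top. The senescent columns are higher for most members and senescent EV replicate 3 is the darkest of them (median 1.16). The siLMNB1 columns hold the lowest values of C8orf33 and the highest of OPLAH, TOP1MT and GSDMD.

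In the empty vector cells, 53 of the 56 tested members were higher in the senescent than in the young group and the median log2 fold change was 0.97, against -0.04 over all 13172 tested protein-coding genes. At an adjusted p under 0.05 together with a log2 fold change of 1 or more, 25 members lay past both thresholds upward (15.1% of all tested protein-coding genes did) and 0 downward (12.0% of all did). These numbers chose the end and carry no evidence of their own. The largest log2 fold changes were those of MFSD3 (2.50), SCX (2.48), KIFC2 (2.14), GPT (2.12) and GLI4 (2.10). Without senescent EV replicate 3 the count was 14 in place of 25. A further fit used offsets that remove the trend of each library on GC content and gene length. With the offsets, 2 members were past the thresholds upward (MFSD3 1.33 and GLI4 1.01) and 2 downward (PLEC -1.14 and GSDMD -1.56). Of all tested protein-coding genes, 9.35% lay past them upward and 9.72% downward in that fit.

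The boundary of the window falls in a stretch with few expressed genes. Just outside it, LY6L had no count and LY6E, a surface protein anchored by GPI, had log2 fold changes of 0.86 with the empty vector and 0.59 with TRF2. Just inside it, LY6H and GPIHBP1 were too low to test and ZFP41 had log2 fold changes of 0.99 and 0.59.

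The senescent and young cells carrying the TRF2 vector gave a comparison that shares no library with the one that chose the end. Here 12 of the 56 tested members rose (21.4%, where 11.4% of all tested protein-coding genes did) and 0 fell (11.8% of all did). The risers were MFSD3, SCX, FAM83H, GPT, ZNF696, PPP1R16A, ZNF517, KIFC2, GPAA1, ARHGAP39, GLI4 and VPS28. The median log2 fold change of the 56 was 0.62, against -0.03 over all tested protein-coding genes, and 47 were positive. Without the fold change threshold 37 members rose and 2 fell, namely PARP10 and GSDMD. The share of all genes past that limit is not given here, so nothing is read from these counts. At an unadjusted p below 0.05, 38 members were higher and 2 lower. Of all tested protein-coding genes, 66.1% were below this limit, in either direction. The 12 calls rest on edgeR's quasi-likelihood test, Benjamini-Hochberg adjusted, with the same 2 thresholds as above. Under the GC and length offsets, 1 member rose (MFSD3, 1.28) and 2 fell (PARP10, -1.18, and GSDMD, -1.23), and the median was 0.13. Of all tested protein-coding genes, 8.68% rose and 10.2% fell with the offsets.

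MFSD3 (chromosome 8, 144509070 to 144511213), a membrane protein of the major facilitator superfamily of transporters, had the largest rise. It was at 8.47, 4.78 and 7.20 CPM in the young TRF2 libraries and at 26.6, 27.5 and 27.5 CPM in the senescent TRF2 libraries. The groups did not overlap, and the lowest senescent library was above the highest young one. The log2 fold change was 1.99 ± 0.21 (SE from the fit to all 15 libraries, n = 3 against 3). Its adjusted p was 4.99e-07 by edgeR's quasi-likelihood test. It was the only member whose rise was also called with the offsets. SLC39A4, the zinc importer ZIP4, was the transporter with the smallest value, 0.24 ± 0.27, and was not called.

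**Figure D2:**
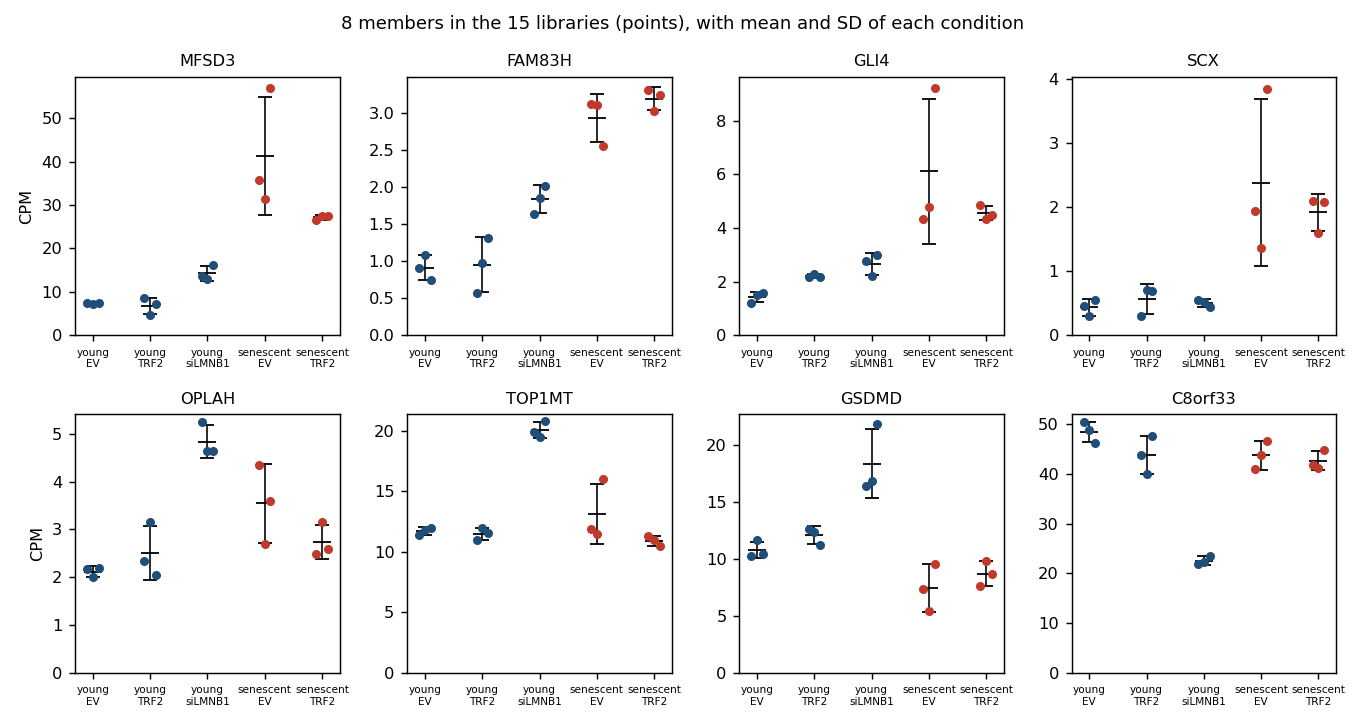
CPM of 8 members in each library (points, with mean and SD of the 3 libraries of each condition), in young cells with the empty vector, TRF2 or siLMNB1 and in senescent cells with the empty vector or TRF2. MFSD3, FAM83H, GLI4 and SCX are highest in senescent cells, OPLAH, TOP1MT and GSDMD are highest with siLMNB1, and C8orf33 is low only with siLMNB1.

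Genes of the cytoskeleton, cell polarity and motors held 4 of the 12 risers among 6 tested members, and 0 of the 6 rose with the offsets. Their GC content was 65.3 to 67.4%. Of all tested protein-coding genes with 65 to 70%, 41.2% rose without the offsets. FAM83H (143723933 to 143738234) was at 0.570, 0.979 and 1.31 CPM in young TRF2 cells and at 3.31, 3.02 and 3.25 CPM in senescent TRF2 cells, with no overlap. Its log2 fold change was 1.75 ± 0.24 (adjusted p = 1.27e-05, edgeR). PPP1R16A, a targeting subunit of protein phosphatase 1, rose by 1.32 ± 0.20 and KIFC2, a kinesin motor, by 1.21 ± 0.20. ARHGAP39 rose by 1.12 ± 0.10. Exons of other genes overlap 52.6% of the exonic bases of PPP1R16A and 17.8% of those of KIFC2. Risers of other groups also overlap, namely GPAA1 (21.5%), GLI4 (19.8%) and GPT (7.5%), and 16 tested members exceed 10%. The strand setting of the counting is not given in the sources used here. PLEC was the lowest of this group, at 0.53 ± 0.15. In the empty vector libraries its level was 817.5 and 759.7 CPM in senescent replicates 1 and 2 but 465.2 CPM in replicate 3, below the young range of 627.5 to 675.6 CPM.

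Zinc finger and other DNA-binding genes formed the largest group, with 4 risers among 14 tested members and a median of 0.62. SCX (144266453 to 144268481) encodes scleraxis, a helix-loop-helix factor known from tendon. It was at 0.299, 0.712 and 0.689 CPM in young TRF2 libraries and at 2.10, 1.59 and 2.08 CPM in senescent ones. The groups did not overlap, and the log2 fold change was 1.77 ± 0.39 (adjusted p = 0.000946, edgeR), although the highest count of SCX in any library was 119. ZNF696 rose by 1.41 ± 0.18, ZNF517 by 1.28 ± 0.16 and GLI4, a zinc finger protein, by 1.05 ± 0.24, a call that was lost without senescent TRF2 replicate 1 (0.9989). Of the 14, ZNF16 had the smallest value, -0.04 ± 0.12. HSF1, at 0.91 ± 0.11 (adjusted p = 2.6e-06, edgeR), was among the 10 without a call and missed only the fold change threshold.

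The enzymes, RNA processing factors and the remaining groups had 3 of the risers between them, GPT, GPAA1 and VPS28. GPT was at 0.136, 0.237 and 0.344 CPM in young TRF2 libraries and at 0.796, 0.700 and 0.769 CPM in senescent ones. Its log2 fold change was 1.66 ± 0.51 (adjusted p = 0.0101, edgeR), at no more than 27 counts in a library, and the call was lost without young TRF2 replicate 1. GPAA1, with no overlap between the groups, was at 131.3, 109.5 and 127.8 CPM in young TRF2 cells and at 264.7, 282.5 and 274.4 CPM in senescent ones (1.16 ± 0.11, adjusted p = 1.05e-07, edgeR). VPS28, a subunit of the ESCRT-I sorting complex, rose by 1.04 ± 0.16, and the call was lost without young TRF2 replicate 2 (0.98). None of the 8 tested genes of RNA processing, ribosome assembly and translation was called. Their values ran from -0.18 ± 0.17 for the elongation factor subunit EEF1D to 0.79 ± 0.13 for MAF1, the repressor of RNA polymerase III. MAF1 missed only the fold change threshold (adjusted p = 8.6e-05, edgeR).

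All 4 genes of DNA repair, replication and topology had negative log2 fold changes with TRF2, from -0.40 to -0.04, with a median of -0.14. Of these, only PARP10 had an adjusted p below 0.05 (edgeR). In the empty vector comparison, which selected the end, the same 4 genes had positive values, from 0.16 to 0.69, with a median of 0.47. PARP10, a mono-ADP-ribosyltransferase, was at 9.42, 11.0 and 12.0 CPM in young TRF2 libraries and at 7.39, 8.40 and 8.71 CPM in senescent ones, with no overlap (-0.40 ± 0.14). TONSL, a factor of replication fork repair, had -0.04 ± 0.17. GSDMD, the pore-forming gasdermin D of pyroptosis, was the lowest of all members. It was at 12.7, 12.4 and 11.2 CPM in young TRF2 libraries and at 7.58, 9.77 and 8.69 CPM in senescent ones, and its log2 fold change was -0.48 ± 0.17. Neither PARP10 nor GSDMD reached the fold change threshold, and both passed it with the offsets.

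Among the other named members, PYCR3, an enzyme of proline synthesis, had a log2 fold change of 0.04 ± 0.15 and MROH1, a protein with HEAT repeats, 0.96 ± 0.12. The pseudokinase NRBP2 had 0.71 ± 0.09 and ADCK5, of the aarF kinase family, 0.51 ± 0.25. None of these 4 was called. MROH1 (adjusted p = 4.67e-06, edgeR) and NRBP2 (adjusted p = 6.07e-06, edgeR) missed only the fold change threshold, and PYCR3 and ADCK5 missed both.

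The rises were spread over the window. In successive windows of 0.5 Mb from the end, 2 of 9, 6 of 21, 2 of 14 and 2 of 12 tested members rose with TRF2, and the medians were 0.43, 0.91, 0.57 and 0.59. The 3 tested genes nearest to the end were C8orf33, 72.0 kb from it, ZNF16 at 187.7 kb and ZNF250 at 236.5 kb. Their log2 fold changes were -0.04 ± 0.09, -0.04 ± 0.12 and 0.59 ± 0.14, and none was called. ZNF250 missed only the fold change threshold (adjusted p = 0.00153, edgeR). MFSD3, GPT, PPP1R16A and KIFC2 lie together between 627.4 and 664.4 kb. RECQL4 at 620.8 kb (-0.20 ± 0.19), ZFTRAF1 at 675.8 kb (0.99 ± 0.14) and TONSL at 694.2 kb (-0.04 ± 0.17) were not called. ZFTRAF1, singled out after its values were seen, was just short of the fold change threshold. Across the 56 members, the Pearson correlation of the log2 fold change with distance was -0.05 and the Spearman correlation -0.07. With the offsets these were -0.25 and -0.30, with higher values nearer to the end. The members share their libraries and some overlap, so these values are only descriptive.

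**Figure D3:**
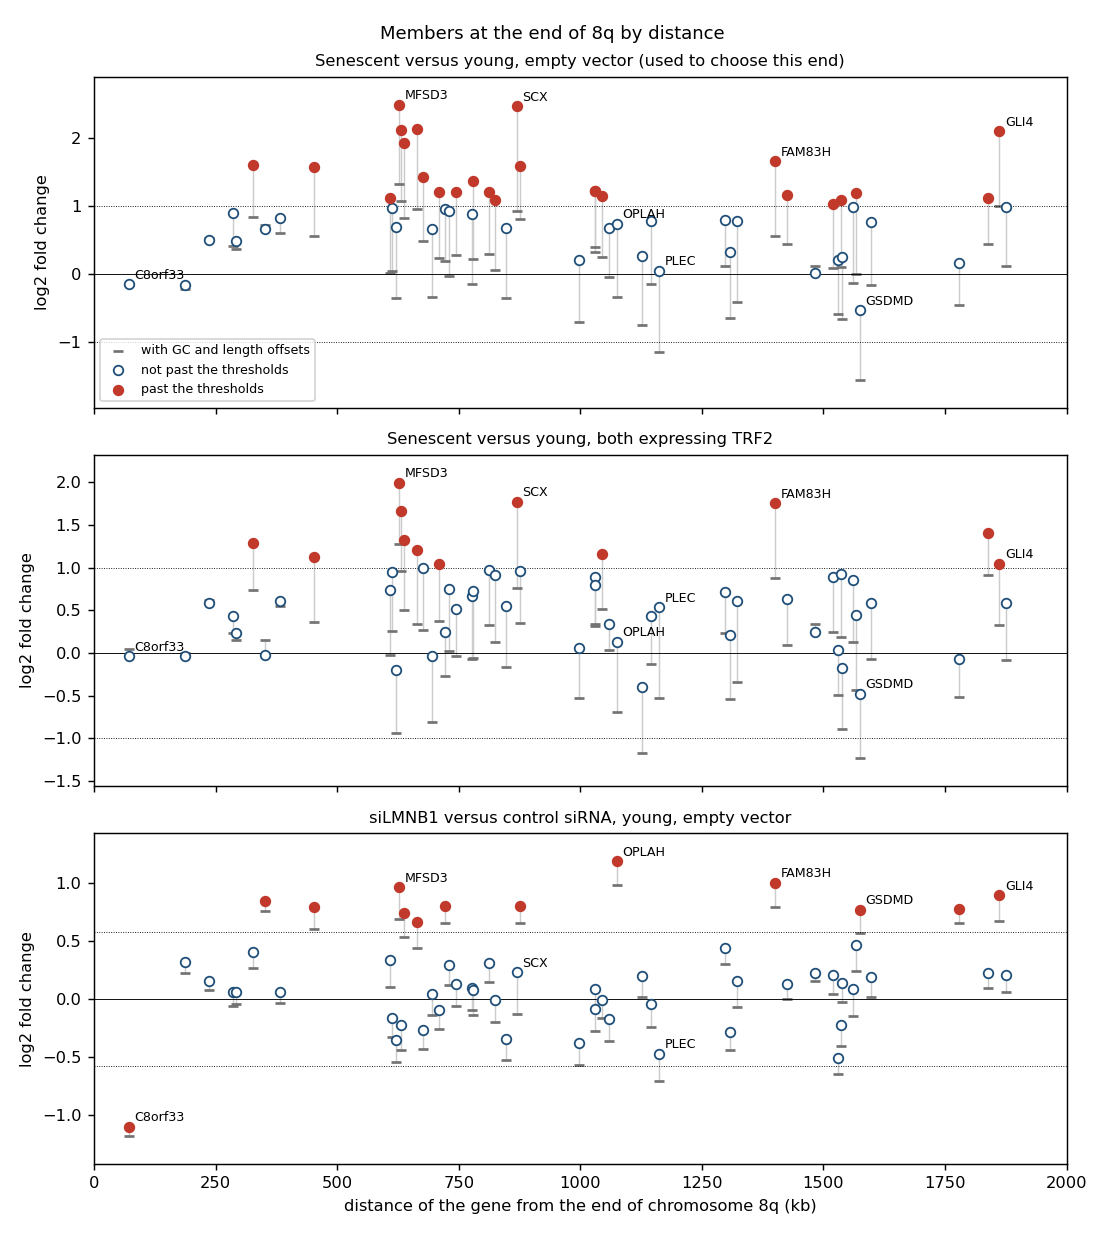
Log2 fold change of the 56 tested members against distance from the end of 8q in kb, for the senescent versus young comparison with the empty vector (top, which selected this end), the same with TRF2 (middle) and siLMNB1 (bottom). Filled points are past the thresholds (dotted lines mark the log2 fold change), and dashes joined by grey lines give the value with GC and length offsets, which lie lower for most members in the upper panels and leave 2, 1 and 9 rises.

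The members are rich in GC. The median GC content of the exons was 64.0% among tested members and 47.6% among all tested protein-coding genes, of which 95.8% lay below the median of the members. The 9 members nearest to the end, most of them zinc finger genes, had a lower median of 50.6%. Across the 56 members, log2 fold change with TRF2 and GC content had a Pearson correlation of 0.38 and a Spearman correlation of 0.36, and these were -0.11 and -0.08 with the offsets. Of 42 tested members with a GC content of 60% or more, 11 rose with TRF2 (26.2%) and the median was 0.75. Elsewhere in the genome, 538 of 1649 tested genes with such a GC content rose (32.6%) and the median was 0.72. Of the 7 members with a GC content under 55%, 0 rose and the median was 0.23, whereas 9.16% of 4248 genes elsewhere with 45 to 55% rose and their median was 0.02. With the offsets, the shares among the GC-rich genes were 2.38% at the end of 8q and 12.6% elsewhere. The difference of these shares was not tested. The GC trend, the deposit and the senescent state cannot be told apart.

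**Figure D4:**
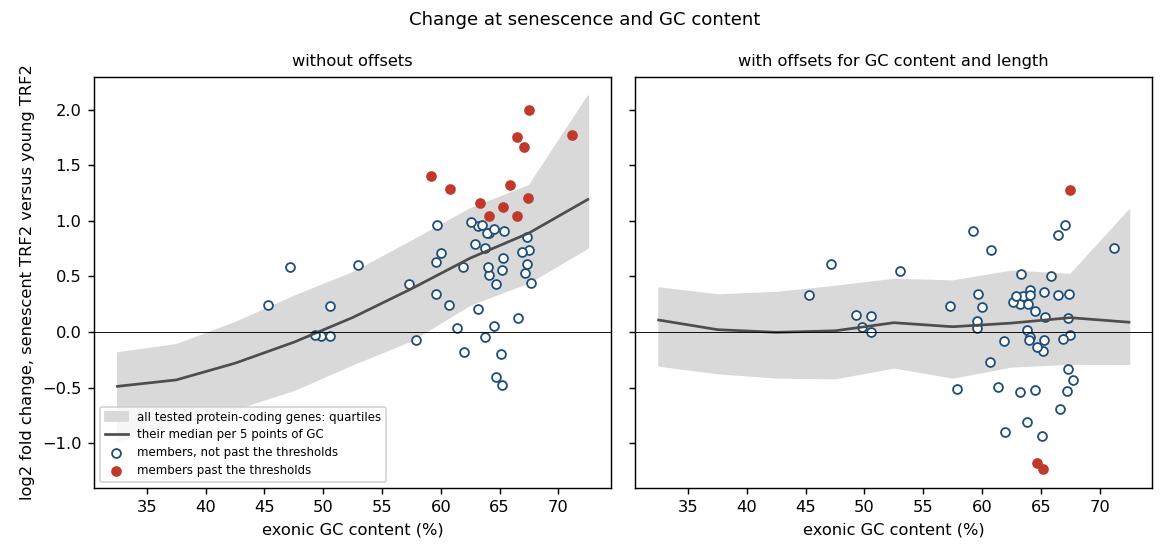
Log2 fold change between senescent and young TRF2 cells against exonic GC content, before (left) and after (right) offsets for GC content and length. The grey band gives the quartiles and the line the median of all tested protein-coding genes in bins of 5 points with 20 or more genes; the members, with a median GC content of 64.0%, lie about the line, and 12 members past the thresholds on the left, all higher, become 1 higher and 2 lower on the right.

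The end of 8q was set beside 3 other gene-rich ends, which were chosen with earlier results known. Of the tested genes in the last 2 Mb with TRF2, 26 of 66 rose at 16p, 25 of 57 at 19p and 21 of 49 at 9q, and 192 of 903 (21.3%) over all ends together. In the next 2 Mb of 8q, between 2 and 4 Mb from the end, 3 of 12 tested genes rose. With the offsets, 1 of 56 rose at 8q (1.79%), 10 of 66 at 16p (15.2%), 11 of 57 at 19p (19.3%), 11 of 49 at 9q (22.4%), 85 of 903 over all ends (9.41%) and 1 of 12 between 2 and 4 Mb. No difference between these regions was tested.

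Knock-down of Lamin B1 in young cells raised 12 of the 56 tested members (21.4%, where 9.93% of all tested protein-coding genes rose) and lowered 1 (8.72% of all fell), by edgeR's quasi-likelihood test (Benjamini-Hochberg adjusted) with a log2 fold change of 0.58 or more. The study had also drawn attention to 8q in this comparison, so the count is not independent evidence. The risers were OPLAH, FAM83H, MFSD3, GLI4, ZNF34, MROH1, SLC39A4, ARHGAP39, TOP1MT, GSDMD, PPP1R16A and KIFC2, and C8orf33 fell. The median of the 56 was 0.15, against 0.02 over all tested protein-coding genes, and 43 members were not called. With the offsets, 9 of the 12 rises were still called and PPP1R16A, KIFC2 and GSDMD were not. In that fit 3 members fell (C8orf33, PLEC and PYCR3), and the median was -0.03. Of all tested protein-coding genes, 8.30% rose and 10.9% fell with the offsets. Leaving out single libraries gave 8 to 11 rises. Among members with a GC content of 60% or more, 9 of 42 rose (21.4%), against 13.2% of such genes elsewhere. This comparison shares the young EV libraries with the empty vector comparison above.

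OPLAH (144051266 to 144063965), the 5-oxoprolinase of the glutathione cycle, rose most. It was at 2.16, 2.00 and 2.19 CPM in young EV libraries and at 5.24, 4.64 and 4.63 CPM with siLMNB1. The groups did not overlap, with a log2 fold change of 1.19 ± 0.20 (adjusted p = 0.000252, edgeR) and 0.98 with the offsets. Between senescent and young TRF2 cells its value was 0.13 ± 0.20 and was not called.

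C8orf33 (145052465 to 145066685), an open reading frame with no function assigned here and the member nearest to the telomere, was the one that fell. It was at 50.4, 48.8 and 46.3 CPM in young EV libraries and at 21.8, 22.4 and 23.5 CPM with siLMNB1. The 3 siLMNB1 libraries were the lowest of all 15. The log2 fold change was -1.10 ± 0.09 (adjusted p = 1.89e-07, edgeR) and -1.18 with the offsets. In senescent cells, in which LMNB1 was also low, C8orf33 was at 40.9 to 46.7 CPM.

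FAM83H was at 0.906, 1.09 and 0.744 CPM in young EV libraries and at 1.64, 1.85 and 2.02 CPM with siLMNB1 (1.00 ± 0.25, adjusted p = 0.00643, edgeR). MFSD3 was at 7.39, 7.16 and 7.44 CPM and at 13.8, 12.9 and 16.2 CPM (0.96 ± 0.21, adjusted p = 0.0021, edgeR). For both genes every siLMNB1 library was above every young EV library and below every senescent library.

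GLI4 was at 1.22, 1.50 and 1.56 CPM in young EV cells and at 2.75, 2.19 and 2.99 CPM with siLMNB1, with no overlap (0.89 ± 0.26, adjusted p = 0.0151, edgeR). The call was lost without young EV replicate 1 or siLMNB1 replicate 3. ZNF34, of the zinc finger cluster, was at 1.67, 1.44 and 1.79 CPM and at 2.69, 2.84 and 3.21 CPM (0.84 ± 0.20, adjusted p = 0.00352, edgeR), while its value between senescent and young TRF2 cells was -0.03 ± 0.19. Its GC content was 49.3%, one of the lowest among the members.

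PPP1R16A rose by 0.74 ± 0.21 (adjusted p = 0.0115, edgeR) and KIFC2 by 0.66 ± 0.21 (adjusted p = 0.0241, edgeR). Neither call held in every fit that left out a library. That of PPP1R16A was lost without young EV replicate 1 or 2 or siLMNB1 replicate 3, and that of KIFC2 without replicate 1 or 3 of either group.

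TOP1MT, the mitochondrial topoisomerase I, was at 11.4, 11.8 and 12.0 CPM in young EV cells and at 19.9, 19.5 and 20.9 CPM with siLMNB1 (0.78 ± 0.11, adjusted p = 8.1e-05, edgeR). GSDMD was at 10.3, 11.6 and 10.4 CPM and at 16.4, 16.9 and 21.9 CPM (0.77 ± 0.17, adjusted p = 0.00212, edgeR). In both genes the siLMNB1 libraries were higher than all other libraries, those of senescent cells included. PLEC had 627.5, 665.5 and 675.6 CPM in young EV cells and 461.1, 455.2 and 504.0 CPM with siLMNB1 (-0.47 ± 0.15), which did not reach the fold change threshold.

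The 6 libraries of the TRF2 comparison and the 6 of the siLMNB1 comparison are separate. However, the siLMNB1 comparison shares the young EV libraries with the comparison that selected the end. The overlap given next is therefore a description and not independent evidence. ARHGAP39, FAM83H, GLI4, KIFC2, MFSD3 and PPP1R16A rose in both, which is 50.0% of the 12 risers of either list. Over all tested protein-coding genes, 344 rose in both, 22.9% of the risers of the TRF2 comparison and 26.3% of those with siLMNB1. These shares are without the offsets. The 6 members had a GC content of 65.3 to 67.5%. With the offsets, only MFSD3 of the 6 was still called in both comparisons. By the windows of 0.5 Mb from the end, 2 of 9, 5 of 21, 2 of 14 and 3 of 12 tested members rose with siLMNB1. The correlation of its log2 fold changes with distance was 0.13 (Pearson) and 0.10 (Spearman), again as a description across genes that share libraries.

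TRF2 expression in young cells changed 0 of the 56 tested members by edgeR's quasi-likelihood test (0.167% of all tested protein-coding genes rose and 0.0152% fell). At an unadjusted p below 0.05 there were 3 of 56 members, all higher (ZNF34, ZNF707 and GLI4). Of all tested protein-coding genes, 9.57% were below this limit, in either direction. DESeq2's Wald test called 1 member, ZNF34. The median log2 fold change was 0.06. ZNF34 was at 2.44, 2.49 and 3.44 CPM with TRF2, all above its 1.44 to 1.79 CPM in young EV cells, with a log2 fold change of 0.78 ± 0.20 (adjusted p = 0.158, edgeR).

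In senescent cells, TRF2 expression raised 0 members (2.94% of all tested protein-coding genes rose) and lowered 1, RECQL4 (4.33% of all fell). The median of the 56 was -0.26, against -0.01 over all tested protein-coding genes, and 10 members had a positive value. RECQL4, a RecQ helicase of DNA replication and repair, was at 9.96, 9.51 and 17.2 CPM in senescent EV libraries and at 6.91, 6.84 and 5.81 CPM in senescent TRF2 libraries. The groups did not overlap, and replicate 3 was by far the highest of the EV libraries. The log2 fold change was -0.91 ± 0.19 (adjusted p = 0.00598, edgeR), and -0.58 and not called without that replicate. Without senescent EV replicate 1, in contrast, 13 members were called in either direction, among them PLEC (0.45 with all libraries). The share of all genes called in that fit is not given here, so nothing is read from this count. With the offsets RECQL4 was still called and the median was -0.06. Among genes with a GC content of 60% or more, the median without the offsets was -0.29 for members and -0.17 elsewhere. This comparison shares the senescent EV libraries with the one that selected the end. As the subtracted values served in that choice, nothing is read from the sign of the median or of the RECQL4 value.

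The interaction of senescence and TRF2, which is the change at senescence with TRF2 minus that with the empty vector, also uses the libraries that selected the end. It was called for 0 of 56 members by edgeR's quasi-likelihood test (0.213% of all tested protein-coding genes were called upward and 0.979% downward). At an unadjusted p below 0.05, 1 member was higher (PLEC) and 13 were lower. Of all tested protein-coding genes, 16.4% were below this limit, in either direction. DESeq2's Wald test called 3 members (RECQL4, PARP10 and MROH1). Without senescent EV replicate 1, edgeR called 11, and the share of all genes called in that fit is not given here. The median difference of the log2 fold changes was -0.29, and -0.02 with the offsets, and as the subtracted values chose the end, nothing is read from its sign. For MFSD3 the log2 fold change at senescence was 2.50 with the empty vector and 1.99 with TRF2, and the difference of -0.50 ± 0.29 had an adjusted p of 0.401. For FAM83H the values were 1.67 and 1.75, with a difference of 0.08 ± 0.35 and an adjusted p of 0.93.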

How the data were processed

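The data were 15 RNA-seq libraries of MRC-5 fibroblasts. Per the labels and the study's methods, the authors used Trimmomatic for trimming and STAR for alignment (build GRCh38), and deposited unnormalized counts per gene. The annotation release and strand setting are not given in the sources used here. Genes were placed and exonic GC content and length computed with GENCODE 44. After filterByExpr, TMM factors and one model with a mean per condition were computed in edgeR 4.0.16 (R 4.3.3, limma 3.58.1), and its quasi-likelihood p-values were adjusted by Benjamini-Hochberg over 15799 genes. Each SE was the absolute log2 fold change divided by the square root of its quasi-likelihood F statistic. Offsets came from loess curves on GC content and length in each library (span 0.3, prior count 1). DESeq2 1.42.0 served as an alternative. The steps were tested on simulated data with 200 changed genes. Named members were, by rule, the 8 largest and 5 smallest changes called at senescence with TRF2, the 5 largest and 5 smallest called with siLMNB1, up to 3 called with TRF2 in each direction, the 3 nearest to the end, and the extremes of each role; others are stated. The members, lists and roles were chosen with earlier results of these data known. Replicate numbers were not taken as pairs. No pair of replicates agreed within sampling noise. Tables were made with pandas 2.3.3 in Python 3.11.15.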

Additional observations from a re-analysis of the deposited data

How the results depend on the processing

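With 3 libraries per condition, only large changes pass the thresholds for members with few counts. Counts of called members kept within 1.5 times under DESeq2's size factors. With the offsets, rises at senescence went from 12 to 1 with TRF2 and from 25 to 2 with the empty vector, falls with TRF2 from 0 to 2, and falls with siLMNB1 from 1 to 3. With the offsets and the replicate block these were 1, 1, 2 and 3, and 1 interaction was called. The replicate block alone moved no count. Same-numbered libraries had a median correlation of 0.003 (range -0.095 to 0.20, over 0.1 in 2 of 30 pairs). For libraries with different numbers it was -0.003 (range -0.133 to 0.082, over 0.1 in 0 of 60 pairs). The numbers were not taken as pairs, though these values do not settle whether some of them are. Without a fold change threshold, 37 members rose and 2 fell at senescence with TRF2, and 46 rose and 1 fell with the empty vector. In the same way, 14 rose and 4 fell with siLMNB1, and 5 changed with TRF2 in senescent cells. The shares of all genes past that limit are not given here. At an unadjusted p below 0.05, a looser limit, the shares of all tested protein-coding genes were 66.1%, 71.4%, 45.5% and 30.5% in that order. Among members whose exons overlap no other gene (20 tested), the rises were 7, 10 and 6 (TRF2, empty vector, siLMNB1) and 0 changed with TRF2 in senescent cells. Within 1 Mb of the end they were 15 with the empty vector and 7 with siLMNB1. DESeq2's Wald test called 1 member for TRF2 in young cells, 3 in senescent cells and 3 interactions, no filter on low counts gave 4 in senescent cells and 6 interactions, and only the libraries compared gave 0 in senescent cells. Leaving out single libraries gave 11 to 14 rises with TRF2, 14 to 33 with the empty vector and 8 to 11 with siLMNB1. It gave 0 to 13 changes with TRF2 in senescent cells and 0 to 11 interactions. The shares of all genes called in these fits are not given here. The median log2 fold change turned negative with the offsets for siLMNB1 (-0.02828, and -0.03557 with the replicate block) and for TRF2 in young cells (-0.02228 and -0.02322). Except where the alternative uses fewer members or libraries, the cause was not tested. Of the values of single named genes under the alternatives, 434 kept their side of the thresholds, 42 lost it, 5 gained it and 0 reversed.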
